A study of Mus musculus with 2 samples.

Results

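Mir191 and Mir425 are a pair of microRNA (miRNA) genes on mouse chromosome 9. They were followed here in limb tissue through 2 of the 1973 rows of each deposited table: the sense counts of the row for Mir425 (ENSMUSG00000065579) and the antisense counts of the row for Gm24083 (ENSMUSG00000092915). Gm24083 is an annotated miRNA row on the minus strand that covers the whole Mir191 hairpin, which lies on the plus strand, and no row of the tables carries the Mir191 identifier. Sense counts are reads on the strand of the annotated row and antisense counts are reads on the other strand, so the antisense counts of Gm24083 are reads on the strand of Mir191. They count every uniquely placed plus-strand read over that row, and the position of a read within it is not resolved. The rows were chosen by identifier with earlier results known, Gm24083 being selected on its antisense counts in these libraries, so their levels and their ratio are given as a description with no test.

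The series holds small-RNA sequencing of limbs of B6NCrl mouse embryos of both sexes at day 10.5 of gestation, when the limb is a bud of mesenchyme under ectoderm. Its 2 libraries are biological replicates of 1 group, without a treatment or a genetic change named in the labels. Replicate 1 was made from the limbs of 69 embryos and replicate 2 from those of 51, so each value averages over a pool and over all cell types of the limb. A lower count in such tissue cannot separate fewer cells that make a miRNA from less miRNA per cell.

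A miRNA gene is transcribed as a long primary RNA that folds into a hairpin. The nuclease Drosha cuts the hairpin out and Dicer cuts it to a short duplex, of which 1 arm is usually kept in an Argonaute protein, where bases 2 to 8, the seed, do most of the pairing with target mRNAs. Hairpins cut from the same primary RNA share its transcription, while processing and decay act on each of them. Mir191 and Mir425 are such neighbours: miR-191 is found in many tissues and is often used as a reference in human samples, and in mouse it acts in the maturation of red cells; miR-425 has been studied mainly in human cancers and heart.

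The sequences below show what the counts stand for. Both hairpins are from RefSeq (GRCm38.p6, plus strand), Mir191 at chr9:108568319-108568392 and Mir425 at chr9:108568777-108568861, with their 5' and 3' mature arms in capitals.
Mir191: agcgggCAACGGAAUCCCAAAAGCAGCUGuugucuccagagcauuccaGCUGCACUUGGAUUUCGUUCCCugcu
Mir425: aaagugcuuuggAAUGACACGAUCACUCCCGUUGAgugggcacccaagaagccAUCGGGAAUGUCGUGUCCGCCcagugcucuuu

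The row Gm24083 (GENCODE M21, GRCm38, minus strand, chr9:108568295-108568414) is shown to make plain that it is the reverse complement of the Mir191 hairpin with 24 more bases on the side of lower coordinates and 22 on the other. Capitals mark the stretches complementary to miR-191-3p, which comes first on this strand, and miR-191-5p.
Gm24083: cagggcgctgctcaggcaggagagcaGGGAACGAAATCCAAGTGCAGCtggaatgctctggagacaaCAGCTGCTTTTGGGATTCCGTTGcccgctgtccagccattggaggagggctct

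The 4 mature arms are given with the seed in capitals, because the seed sets which family a miRNA belongs to.
mmu-miR-191-5p: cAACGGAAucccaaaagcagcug
mmu-miR-191-3p: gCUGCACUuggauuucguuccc
mmu-miR-425-5p: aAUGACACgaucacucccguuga
mmu-miR-425-3p: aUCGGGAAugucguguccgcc

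No seed was shared between the genes, so the pair joins miRNAs of different families. The hairpins have little sequence in common: their longest shared run was 5 bases. They were alike in base composition, with a GC content of 54.05% in Mir191 and 54.1% in Mir425. RNAfold predicted a minimum free energy of -35.0 kcal/mol for Mir191 over 74 bases and of -31.7 kcal/mol for Mir425 over 85 bases, against a median of -32.0 kcal/mol for the 1005 mouse hairpins of the RefSeq table. Per base the energy was -0.473 kcal/mol for Mir191 and -0.373 kcal/mol for Mir425, against a median of -0.406 kcal/mol. In that prediction 75.7% of the bases of Mir191 and 65.9% of those of Mir425 were paired, against a median of 69.0%.

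None of the 4 mature arms occurred in any other hairpin of the RefSeq table, so no other miRNA gene of that table takes part of their reads by an identical copy. Among other mature miRNAs the seed of miR-425-5p was shared by 1, miR-489-3p, and the seeds of the other 3 arms by none. Mir489 had no sense count in either library, which leaves room for at most 0.838 and 0.839 CPM in replicates 1 and 2. CPM are counts per 1000000 sense counts in all rows, and these limits stand for 3 counts and cover counting error only.

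The host transcript depends on the annotation. The pair is commonly placed in Dalrd3, whose human protein takes part in methylation of arginine tRNAs, and the RefSeq span of Dalrd3 (chromosome 9, 108567484 to 108572773) holds both hairpins. In GENCODE M21, Dalrd3 begins at 108569886, leaving 1024 bases between Mir425 and its first exon. There the hairpins lie in the long noncoding RNA gene 4833445I07Rik (108567533 to 108569174, plus strand). One of its transcripts has 1 exon and holds both hairpins in it. In the other, which is spliced, Mir191 lies in the intron (108568181 to 108568483) and Mir425 starts 3 bases beyond the last base of the transcript. Between the hairpins lie 384 bases. The tables hold miRNA rows alone, so the level of the host RNA was not measured.

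**Figure D1:**
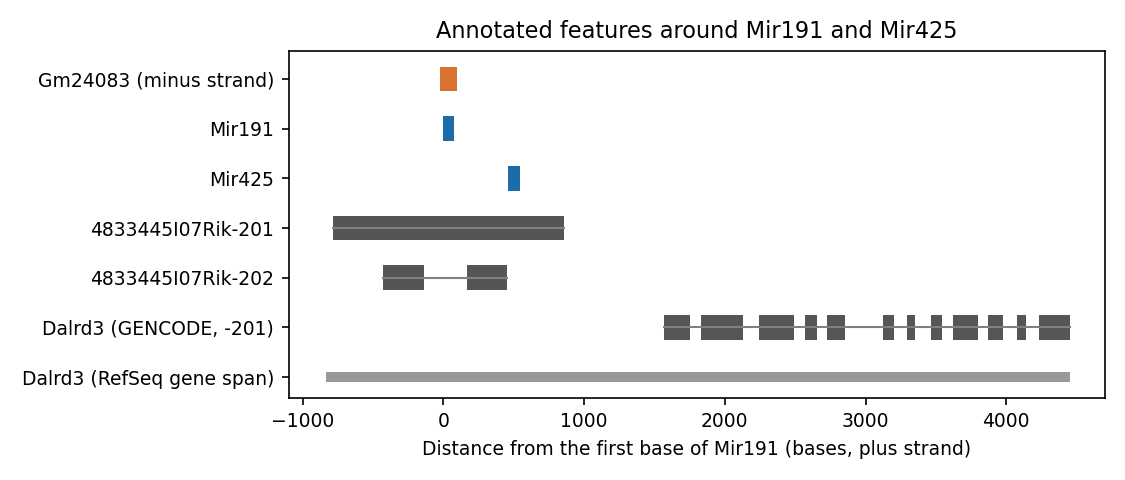
Annotated features around the pair, plotted by distance in bases from the first base of Mir191 on the plus strand; boxes are exons or whole hairpins, lines are introns and the thin bar is the RefSeq gene span. Gm24083 covers Mir191 on the other strand, Mir425 starts 384 bases after the end of Mir191, and both lie before the GENCODE start of Dalrd3.

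Sense counts in miRNA rows were nearly equal, 3581672 in replicate 1 and 3576482 in replicate 2, although total reads were 10064833 and 7218612. The sense column placed 1033044 and 466057 reads outside the rows, which include the antisense reads of the rows. Unmapped reads were 32.3% and 18.6% of all reads, and reads placed at several loci, which no row receives, 21.9% and 25.4%. All 6 limb bud markers (Mir10a, Mir10b, Mir196b, Mir214, Mir199b and Mir143) were detected, meaning at least 10 counts in both libraries, and summed to 202682 and 191847 CPM. The erythroid markers Mir451a and Mir144, of a lineage in which miR-191 is known to act, summed to 451 and 254 CPM. Their part in the counts of the pair was not tested.

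Mir425, the downstream hairpin, had 7092 sense counts in replicate 1 and 6078 in replicate 2. These are 1980.1 CPM (exact binomial 95% interval 1934 to 2027) and 1699 CPM (1657 to 1743), or 1839.8 ± 198 CPM (SD, n = 2). Scaled by the sense total, its level was higher in replicate 1, and the counting intervals, which leave out differences between pools, did not overlap; with TMM or DESeq2 scaling replicate 2 was the higher, by log2 ratios of 0.069 and 0.056. It ranked 63rd and 68th among the 1973 rows by sense counts, and its mean was at or above that of 81.3% of the 348 detected rows. The other strand of Mir425 had 1 and 2 counts, which are 0.0141% and 0.0329% of the reads at that row.

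Gm24083, read on the strand of Mir191, had 7319 antisense counts in replicate 1 and 5845 in replicate 2. Over the same denominator these are 2043 CPM (1997 to 2091) and 1634 CPM (1593 to 1677), or 1839 ± 289 CPM (SD, n = 2). With the same scaling the level was higher in replicate 1 and the counting intervals did not overlap. With TMM and DESeq2 scaling the log2 ratios kept that direction but were near 0, at -0.033 and -0.046. No counting interval was taken for these 2 ratios. Set among the sense counts of all rows, it would rank 63rd and 71st. On its own annotated strand Gm24083 had 0 counts in both libraries, which allows at most 0.0410% and 0.0513% of its antisense counts. In the sense column these reads are among those outside the rows, of which they were 0.708% in replicate 1 and 1.25% in replicate 2. These shares also reflect the unequal number of reads outside the rows.

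**Figure D2:**
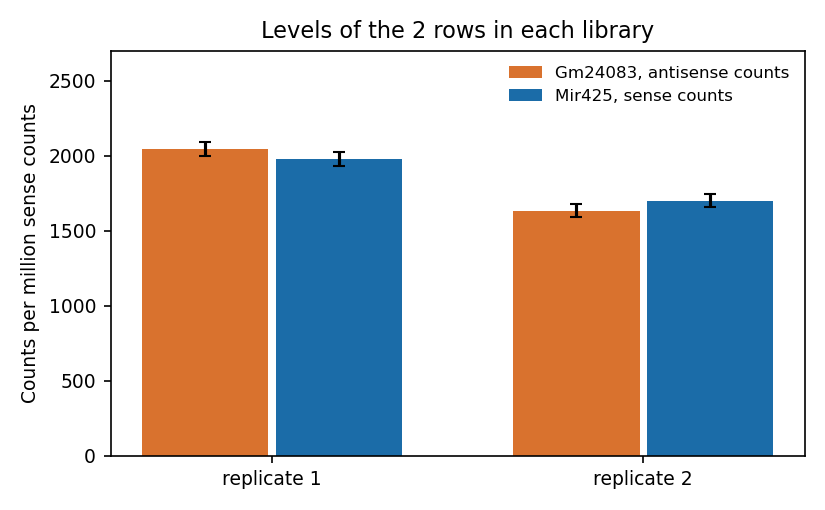
Level of Gm24083 (antisense counts) and Mir425 (sense counts) in each library, in counts per 1000000 sense counts; bars are single libraries and error bars are exact binomial 95% intervals, which cover counting error only. The 2 rows stand at 2043 and 1980.1 CPM in replicate 1 and at 1634 and 1699 CPM in replicate 2.

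The order of levels around the pair was only loosely fixed. The range of the 2 libraries of Mir425 overlapped that of 15 other rows of sense counts, and 59 rows lay above it in both libraries. For Gm24083, 19 rows overlapped and 60 lay above. The rows nearest to Mir425 by the distance of log2 CPM in the 2 libraries were Mir20b (distance 0.082), Mir101b (0.16), Mir361 (0.31), Mir532 (0.34) and Mir196a-2 (0.39). For Gm24083 they were Mir20b (0.059), Mir425 (0.072), Mir101b (0.19), Mir361 (0.35) and Mir532 (0.36). No other row was nearer to Mir425 than Gm24083 was, and 1, Mir20b, was nearer to Gm24083 than Mir425 was. A likeness over 2 libraries says little beyond the level itself.

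Within each library the pair was split almost evenly. In replicate 1, Gm24083 had 227 reads more than Mir425 and made up 50.8% of the 14411 reads of the pair (exact binomial 95% interval 49.97% to 51.6%), a log2 ratio of 0.045 (-0.0019 to 0.093). In replicate 2, it had 233 reads fewer and made up 49.0% of 11923 reads (48.1% to 49.9%), a log2 ratio of -0.056 (-0.11 to -0.0044). The order of the 2 rows was therefore opposite in the libraries, with the strand of Mir191 ahead in replicate 1 and Mir425 ahead in replicate 2.

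The mean log2 ratio was -0.0055 ± 0.072 (SD, n = 2), smaller than the spread between the libraries, so the data do not put either row above the other. The ratio changed by -0.10 from replicate 1 to replicate 2 (exact conditional 95% interval -0.17 to -0.031), which exceeds counting error between these libraries. With 2 libraries the smallest two-sided exact sign-flip p is 0.5, and none is given. A ratio of reads does not depend on the scaling of the libraries, but it takes equal capture of both sequences for granted, which was not measured.

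These are reads per row. Per base of the annotated rows (120 bases for Gm24083 and 85 for Mir425) the mean log2 ratio was -0.50, and per base of the hairpins (74 for Mir191 and 85 for Mir425) it was 0.19. Reads of a mature miRNA do not tile the hairpin, but the position of reads within these rows is not resolved. Which of these ratios is the fairer was not tested. The neighbouring pairs below were compared by reads per row only.

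Other miRNA genes that neighbour each other were seldom this close. Among all rows, 108 pairs of adjacent genes on 1 strand lay within 10 kb. Each gene had at least 10 sense counts in both libraries. Adjacent means next to each other among the rows kept, so genes read by antisense counts can lie between them. These pairs hold 148 genes, so some share a gene. The pairs gave a median absolute log2 ratio of 2.76, with quartiles of 1.56 and 4.90. Of them 18 (16.7%) lay within 2-fold, and 0 (0%) had a mean ratio nearer to equal than the Mir191 and Mir425 rows. Because the signs of the pair were opposite in the libraries, its mean is nearer to 0 than either value. The larger of its absolute log2 ratios was 0.056, and 0 of the 108 pairs had both libraries within that size.

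The 4 nearest pairs by the mean, named after their values were seen, had the following log2 ratios in replicates 1 and 2. Mir667 over Mir376c stood at 0.18 and -0.073, and Mir673 over Mir493 at -0.45 and 0.29. Mir496a over Mir377 stood at 0.013 and 0.16, nearer to equal in replicate 1 than the Mir191 and Mir425 rows. Mir298 over Mir296 stood at -0.060 and -0.13, and these also lie close together, with 378 bases between their hairpins. The change of the log2 ratio between libraries was smaller in size than that of the pair (0.10) in 13 of the 108, and its median was 0.35.

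A list of 20 well-known neighbour pairs, of which 17 could be measured, shows the same scale. The absolute mean log2 ratio ran from 0.39 for Mir192 and Mir194-2, a gut and liver pair, to 7.72 for Mir30e and Mir30c-1, with a median of 2.92. Mir30c-1, Mir194-2 and Mir16-2 share a mature sequence with another gene, and reads placed at both were counted at neither. Of the 17 pairs, 3 lay within 2-fold: Mir192 and Mir194-2, Mir221 and Mir222, which are endothelial and proliferative miRNAs, and Mir106b and Mir93 in Mcm7.

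Mir106b and Mir93, also hosted together, had 33023 and 51690 counts in replicate 1 and 32674 and 59673 in replicate 2. Mir93 was above Mir106b in both libraries, with log2 ratios of -0.65 and -0.87. Mir17 and Mir20a of the Mir17-92 cluster differed by log2 ratios of 1.55 and 1.53, a steadier but wider split. It was the only listed pair whose ratio changed by less between the libraries than that of the Mir191 and Mir425 rows.

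**Figure D3:**
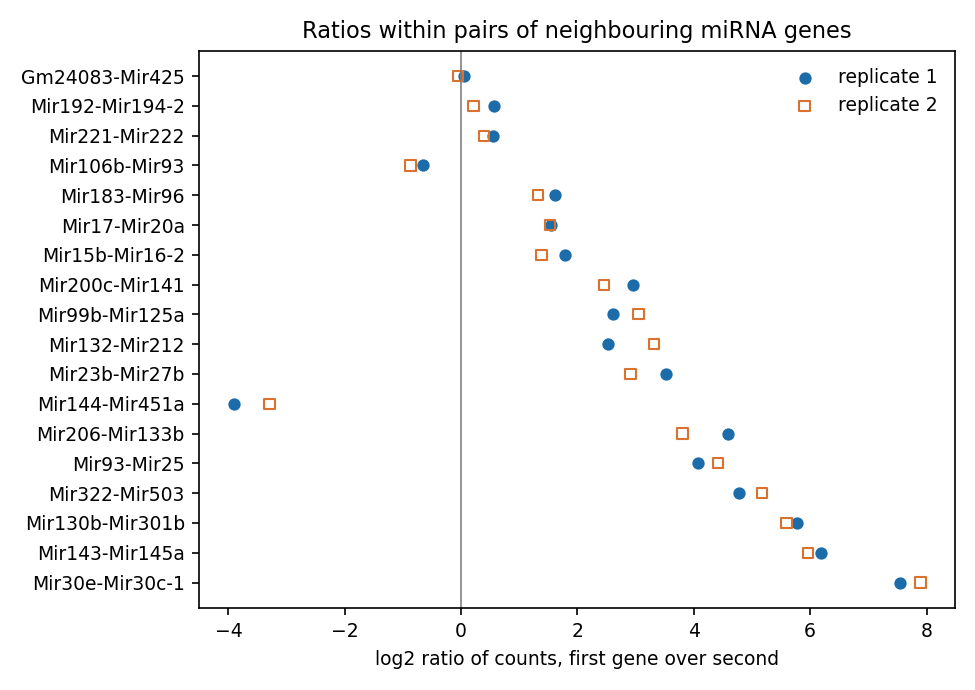
Log2 ratio of counts, first over second gene, for the Gm24083 and Mir425 rows and for 17 listed pairs of neighbouring miRNA genes, ordered by the absolute mean; circles are replicate 1, open squares replicate 2 and the line marks equal counts. The upper pair lies at 0.045 and -0.056, and the listed pairs reach an absolute mean of 7.72.

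The reading of Gm24083 by its antisense counts was shared by few rows. In all, 10 of 1973 rows (0.507%) had more antisense than sense counts and at least 10 antisense counts in both libraries. Of the 359 rows with at least 10 reads on both strands together in both libraries, 339 had under 1% of them on the antisense strand. The 10 rows held 99.2% of all antisense counts in replicate 1 and 99.5% in replicate 2, and Gm24083 alone held 8.69% and 9.47%.

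All 10 rows overlap an annotated miRNA gene on the opposite strand in GENCODE M21, and 0 of those opposite genes has a row in the tables. How many of the remaining rows overlap such a gene was not counted. By the mean of the libraries, the highest were Gm24321 opposite Mir409 at 11177 and 5542 CPM, Gm25301 opposite Mir378a at 2934 and 2904 CPM, Gm25927 opposite Mirlet7e at 2038 and 2498 CPM, then Gm24083, then Gm25252 opposite Mir376a at 1630.0 and 1428 CPM. In replicate 1 Gm24083 was above Gm25927, by 7319 against 7301 counts. Gm24083 was 1 of 8 without any sense count. The other two, Mir299b (7 and 4) and Mir497b (2 and 3), had few sense counts beside their antisense counts.

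The same reading gives neighbour pairs at most of the other 9 rows, placed at their opposite genes. Gm25301 and Mir142b are in none of these pairs. Excluding the Mir191 and Mir425 pair, 12 adjacent pairs within 10 kb had an absolute mean log2 ratio from 0.30 to 6.69, with a median of 2.11, and 4 lay within 2-fold. Some of the 12 share a gene. Among them, Mir497b, read for Mir497, was above Mir195a in both libraries, with 1577 against 1182 counts and 2009 against 1639 counts. Their log2 ratios were 0.42 and 0.29. Nearest to equal by the mean was Mir299b over Gm25750, at 0.14 and -0.75 in replicates 1 and 2.

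**Figure D4:**
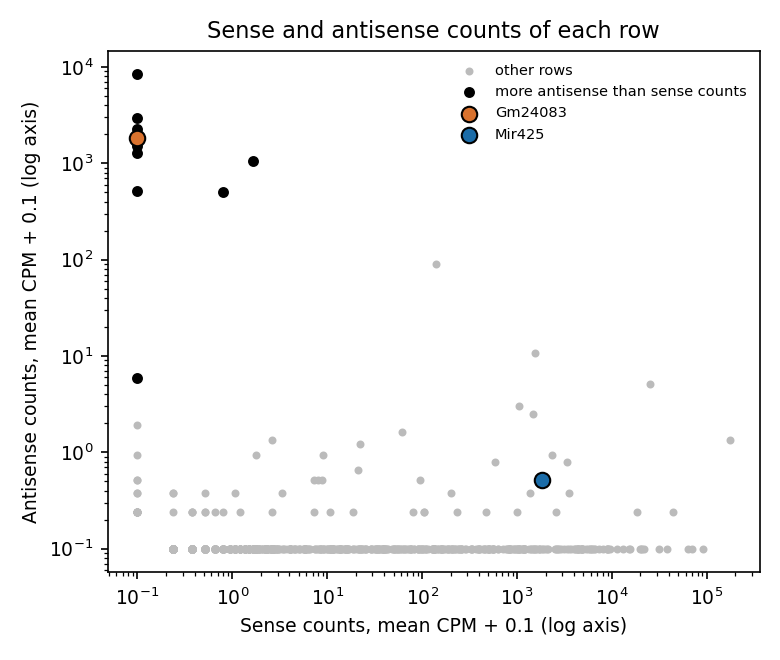
Mean sense against mean antisense level of each row with any count, in CPM plus 0.1 on log axes; black points are the rows with more antisense than sense counts. Gm24083 stands at 1839 CPM on the antisense axis with no sense count, and Mir425 at 1839.8 CPM on the sense axis.

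Scaled by the sense totals, both rows had lower levels in replicate 2, as did most other rows. The log2 ratio of replicate 2 over replicate 1 was -0.22 for Mir425 (counting interval -0.27 to -0.17) and -0.32 for Gm24083 (-0.37 to -0.27), and the median over the 250 rows with at least 100 counts on average was -0.27 (SD 0.66). Relative to that median Mir425 was 0.050 higher and Gm24083 was -0.051, so they lay on either side of it. With TMM scaling, which moves every ratio by 0.29, the ratios were 0.069 and -0.033, and with DESeq2 size factors 0.056 and -0.046, so the direction for Mir425 turned. Neither row differed 2-fold, as 27 of the 250 rows (10.8%) did.

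**Figure D5:**
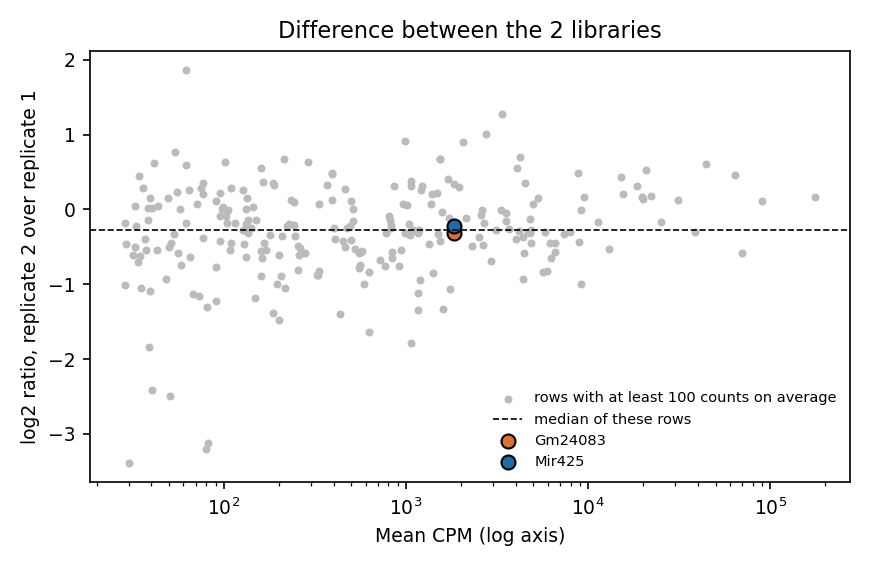
Log2 ratio of replicate 2 over replicate 1 against mean CPM (log axis) for the 250 rows with at least 100 counts on average and for Gm24083 by its antisense counts; the dashed line is the median of the 250 rows. Mir425 at -0.22 and Gm24083 at -0.32 lie on either side of the median of -0.27.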

How the data were processed

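Per the deposited readme texts, reads were aligned to mm10 and counted over GENCODE M4, with 1 table per library. For the aligner, the counting program and read trimming, the sources used here give no name. The authors deposited raw counts per miRNA gene, in 3 columns (both strands, sense and antisense) with 4 rows for reads in no gene. Sense and antisense counts added up to the first column in every row. No read was ambiguous.

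Of 1973 identifiers, 1894 matched GENCODE M21 (GRCm38) and 79 did not; 869 matched a RefSeq hairpin by symbol. CPM used the sense counts of all rows without the 4 others. Ratios within a library carry no prior count, and ratios between libraries a prior count of 1. Intervals are 95%, exact binomial or conditional, and cover counting error only, since amplified reads are not independent molecules.

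The labels number the replicates and name 1 group, so no contrast was tested. The members, gene lists and pairs were chosen with earlier results of these data known. Genes named were the members, the 5 rows nearest to each, seed sharers, the 5 highest antisense rows, the listed pairs and tissue markers. Other genes, among them Mir299b, Mir142b, Mir497b and Gm25750, were chosen after their values were seen. Mir27b with Mir24-1, Mir195a with Mir497 and Mir193b with Mir365-1 gave no ratio, as a partner had no row or no count.

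The other tissue markers, summed per list, came to 6218 and 6473 CPM for ectoderm (Mir205, Mir203), 26707 and 23683 for endothelium (Mir126a), 729 and 610.1 for leukocytes (Mir223, Mir155), 65.3 and 117 for muscle (Mir206, Mir208b), 79.0 and 123 for brain (Mir137) and 24.8 and 5.59 for liver (Mir122) in replicates 1 and 2. Within the muscle list Mir206 had 96 and 350 counts and Mir208b 138 and 68.

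Tools were Python 3.11.15, numpy 2.4.6, pandas 2.3.3, scipy 1.17.1, R 4.3.3, edgeR 4.0.16 (TMM), DESeq2 1.42.0 (size factors) and ViennaRNA 2.7.2. The calculations were tested on simulated data. Other scalings, strand columns, lengths, filters and neighbour distances were tried.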

Additional observations from a re-analysis of the deposited data

How the results depend on the processing

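Of 48 alternative values, 36 stayed within the spread of the replicates, the counting interval or 1.5 times the count, and 12 did not. Some of the 36 could not have moved. Leaving out 1 of 2 replicates always gives a value within their SD. Dividing by length cannot change a difference between libraries, and without sense counts Gm24083 is the same in the unstranded column. With all uniquely placed reads as the denominator, the level was 1520.2 CPM for Mir425 and 1516 CPM for Gm24083. Leaving out 1 replicate gave 1699 to 1980.1 CPM for Mir425, 1634 to 2043 CPM for Gm24083 and -0.056 to 0.045 for the log2 ratio of the pair. That ratio was -0.50 per base of the annotated rows and 0.19 per base of the hairpins, the last chosen after seeing the data. The log2 ratio between libraries of Mir425 was 0.069 with TMM, 0.056 with DESeq2 size factors and -0.032 with all uniquely placed reads; for Gm24083 it was -0.033, -0.046 and -0.13. A minimum of 100 counts per gene and library gave a median absolute log2 ratio of 2.36 for neighbouring pairs. When the minimum mean count was lowered to 10, 54 genes differed over 2-fold between libraries. The cause was not tested for any of these beyond what each alternative changes by construction. Placing the antisense-read rows on the opposite strand, also chosen after seeing the data, gave 115 pairs and a median of 2.65. No contrast between groups, paired or not, was possible because there is 1 group. The ratio of the pair was taken within each library. From replicate 1 to replicate 2 that log2 ratio changed by -0.10 (exact conditional interval -0.17 to -0.031), which exceeds counting error. How far depth or the number of libraries limits the ratio was not tested.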
